A study of Mus musculus with 12 samples.

Results

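Seeding of the hippocampus with pathological tau was compared with PBS injection in mice kept on an acetate-supplemented diet. The comparison holds 3 tau-injected mice (tau-acetate) and 3 PBS-injected mice (PBS-acetate), which are 6 of the 12 mice of the series. The other 6 mice received the same injections on the control diet. All mice were C57Bl6/J, labelled male, and 6 months old when the right dorsal hippocampus was injected with PBS or with 1 µg of tau purified from the frontal cortex of patients with Alzheimer's disease (AD tau). The acetate diet was a LabDiet chow with 5% sodium acetate, and the control diet was chow made by TestDiet, matched in calories by the study's methods. Dorsal hippocampus was taken 6 months after injection from a 1 mm slice, the day after a remote recall test of fear memory, so the mice had also been through memory testing. The mice carry no tau transgene, so the model rests on mouse tau and an injected human seed, and each library mixes all cell types of the dissected tissue. The comparison asks how gene expression differs between seeded and unseeded hippocampus when dietary acetate is raised.

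Misfolded tau can be taken up by neurons and template the aggregation of their own tau, and this seeded pathology spreads slowly between connected regions. Astrocytes and microglia respond to such pathology with intermediate filament, complement and interferon-induced genes, while oligodendrocytes, the myelin-forming glia, are rich in lipid synthesis enzymes. Acetate is turned into acetyl-CoA by enzymes such as ACSS2, and acetyl-CoA feeds both histone acetylation and fatty acid synthesis.

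The 6 libraries held 15291421 to 20218340 counts, so that a normalised read count of 1 CPM (reads scaled to library size with TMM factors) stood for 15.5 to 20.2 reads. Although the labels say male, Xist had 13583 to 25991 reads in the 12 libraries and each of 8 Y-linked genes had 0, so the label is not borne out by these counts. Of the markers of hippocampal neurons, all 6 CA1, 6 CA3 and 9 dentate granule cell markers passed the filter on low counts. That filter does not require a read in every mouse. Acss2, which encodes the acetyl-CoA synthetase of interest, lay between 50.6 and 56.9 CPM in the PBS-acetate mice and between 50.5 and 57.7 in the tau-acetate mice (log2 fold change 0.01 ± 0.07 SE, adjusted p = 0.979). Mapt, which encodes mouse tau, gave 0.08 ± 0.05 (adjusted p = 0.638).

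Tau-acetate mouse 3 stood apart. Ttr, the transthyretin gene that choroid plexus epithelium transcribes very strongly, was at 22.2, 21.5 and 35.9 CPM in the PBS-acetate mice and at 40.0, 36.7 and 399 CPM in the tau-acetate mice. The summed level of the choroid plexus markers was 93.2, 96.9 and 109.9 CPM against 120, 114.3 and 572.7 CPM. A second group of genes, chosen after their values were seen, marks the medial habenula, a cholinergic nucleus that lies beside the third ventricle. Its 7 measured members (Tac2, Chrnb3, Gpr151, Slc5a7, Syt9, Calb2 and Nhlh2) summed to 12.4 to 18.1 CPM in the PBS-acetate mice, to 11.1 and 16.2 CPM in tau-acetate mice 1 and 2, and to 90.0 CPM in mouse 3. Across all genes, 161 were more than 2-fold above the other 2 tau-acetate mice in mouse 3, against 124 for mouse 1 and 39 for mouse 2. The order was different for genes more than 2-fold below the other 2 mice, with 68 in mouse 3, 102 in mouse 1 and 210 in mouse 2, and the median deviation over all genes was smallest in mouse 3 (0.0986 on the log2 scale, against 0.108 and 0.104). By these counts mouse 3 did not stand apart across all genes. Its high choroid plexus level was known beforehand, and the habenula genes were chosen with their high values in it known. Other genes set it apart too. Its summed myelin level was 6414 CPM, against 10330 and 9140 in mice 1 and 2, and Zic1 was at 31.0 CPM, against 6.64 and 7.93. Counts, gene lists and called genes are given with all mice and without tau-acetate mouse 3, and so are most of the other genes named. Mouse 1 differed in another way, with the highest summed level of interferon-induced, complement and reactive astrocyte genes of the 6 mice.

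**Figure D1:**
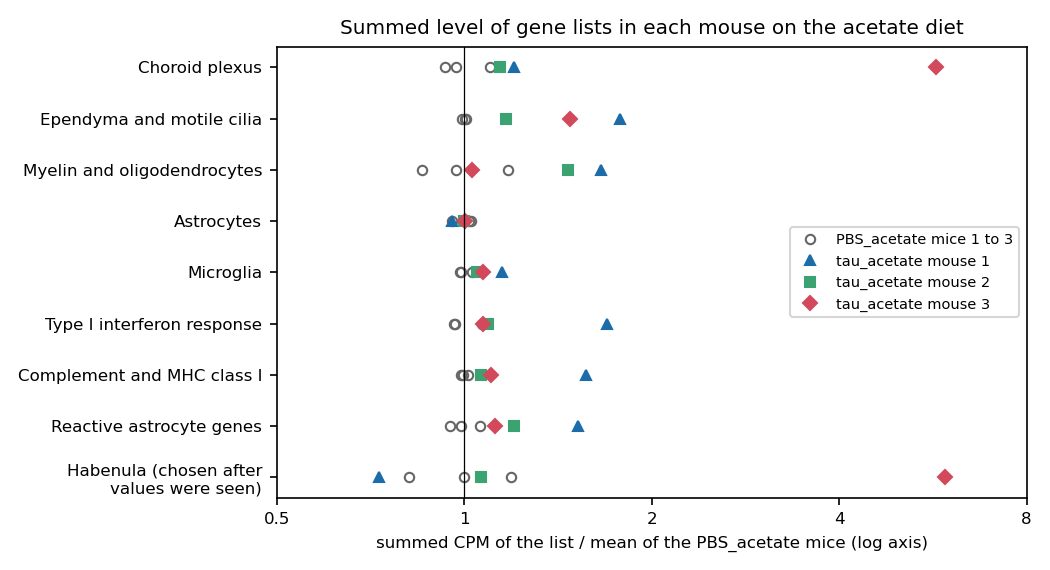
Summed CPM of 9 gene lists in each acetate-diet mouse, divided by the mean of the 3 PBS-acetate mice (log axis); open circles are PBS-acetate mice, filled symbols are tau-acetate mice 1 to 3. Mouse 3 is apart for choroid plexus (572.7 CPM) and habenula genes, and mouse 1 is highest for ependyma, myelin, interferon, complement and reactive astrocyte genes.

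With all mice, 14742 genes were tested and 20 passed an adjusted p below 0.1, which is 0.136% of those tested: 13 were higher and 7 lower in tau-acetate mice. All 20 had groups that did not overlap, which also held for 16.2% of all genes tested. Without tau-acetate mouse 3, 56 of 14917 genes passed (0.375%), 41 higher and 15 lower. The 2 sets shared 13 genes, which are 65% of the first and 23.2% of the second. The changes were mostly small: 6 of the 20 genes were over 2-fold higher and none of the 7 lower genes reached 2-fold. The median absolute log2 fold change over all genes was 0.0865, and 0.100 without mouse 3. As the background for the gene lists below, 7201 of the 14742 genes had a positive estimate, and 7224 of 14917 without mouse 3. At an unadjusted p below 0.05, 5.50% of all genes were higher and 4.83% lower. Without mouse 3 these shares were 5.89% and 4.92%. On the control diet the same model called 2 genes between tau and PBS (0.0136%). The median absolute log2 fold change there was 0.0869, close to that on acetate. At an unadjusted p below 0.05 in that model, 709 genes were higher and 714 lower on the control diet, beside 811 and 712 on acetate. The counts of called genes therefore do not show a broader tau effect on acetate.

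These counts hung on single mice. With 12 mice as the start, leaving out PBS-acetate mouse 1, 2 or 3 left 0 called genes by edgeR (1198, 1122 and 1478 at an unadjusted p below 0.05), whereas leaving out tau-acetate mouse 1, 2 or 3 left 11, 93 and 56. Removing tau-control mouse 1, 2 or 3, which enter through the shared spread, left 12, 12 and 7. Of the PBS-control mice, leaving out mouse 1, 2 or 3 left 17, 14 and 26. Starting from the 56 genes without tau-acetate mouse 3, leaving out a further PBS-acetate mouse 1, 2 or 3 gave 89, 1 and 23, and tau-acetate mouse 1 or 2 gave 2 and 133. The control-diet mice moved that count too, to 118, 9 and 107 for the PBS-control and to 12, 84 and 67 for the tau-control mice. DESeq2 on the 12 mice called 77 higher and 44 lower genes.

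**Figure D2:**
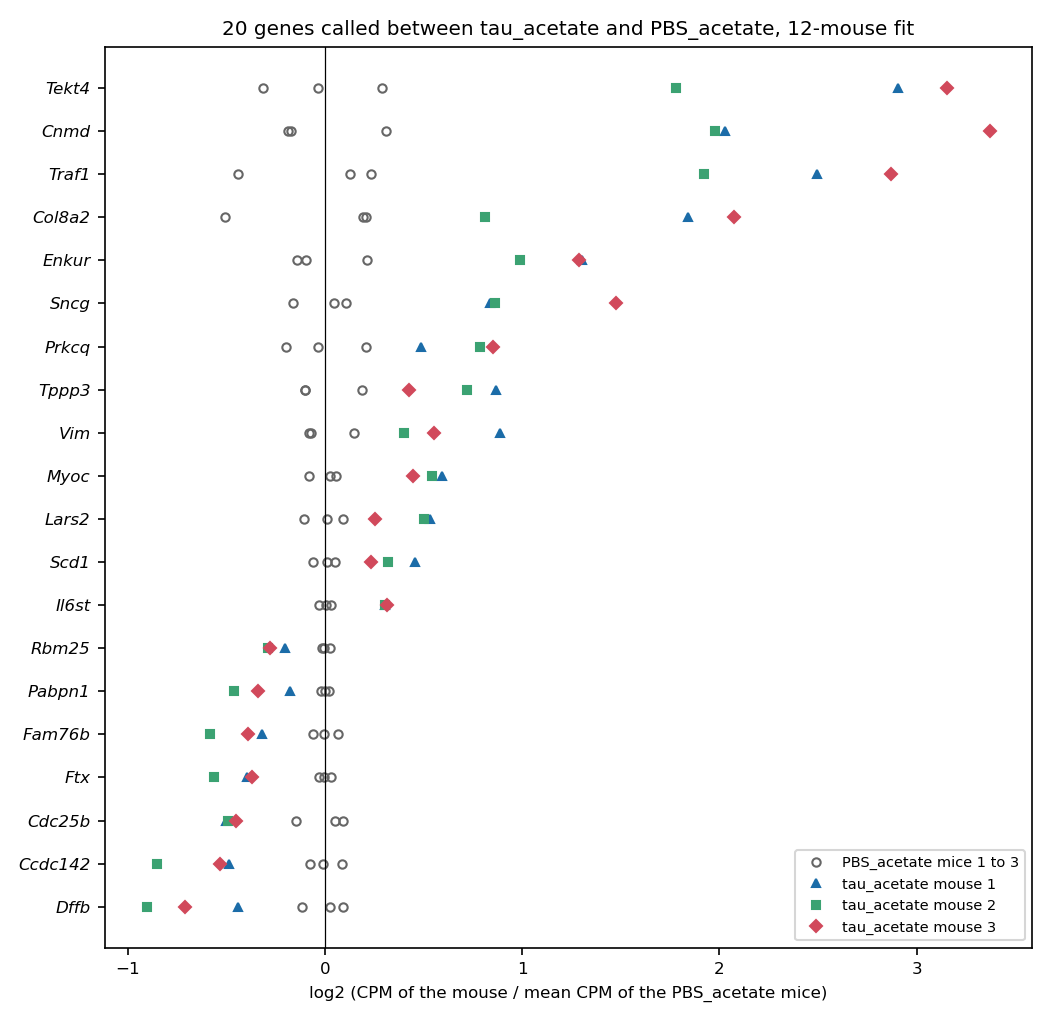
The 20 genes called with 12 mice. The x axis is the log2 ratio of each mouse's CPM to the mean of the PBS-acetate mice; open circles are PBS-acetate mice and filled symbols tau-acetate mice 1 to 3. In every gene the 3 tau-acetate mice lie on one side of the PBS-acetate mice, and mouse 3 is the farthest of the 3 from the PBS-acetate mean in 7 genes, mouse 1 in 7 and mouse 2 in 6.

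Among the genes that rose were several of motile cilia and of the ependyma, the ciliated lining of the ventricles. Enkur (chr2:21180731-21205365, minus strand) encodes enkurin, a microtubule-associated protein of cilia and sperm flagella. It was at 1.55, 1.6 and 1.98 CPM in PBS-acetate mice and at 4.21, 3.39 and 4.17 CPM in tau-acetate mice, so the lowest tau-acetate value lay well above the highest PBS-acetate value. Its log2 fold change was 1.20 ± 0.22 (adjusted p = 0.0593) and 1.16 ± 0.25 without mouse 3 (adjusted p = 0.0938). Tekt4 (chr17:25454615-25476602, plus strand), a tektin filament protein of ciliary and flagellar microtubules, rested on few reads: 3, 3 and 2 in PBS-acetate and 24, 9 and 22 in tau-acetate mice. The ratio of reads per total was 6.61 (95% exact interval 3.13 to 16.1, counting error only), the fitted log2 fold change was 2.67 ± 0.52 (adjusted p = 0.0856), and without mouse 3 it was 2.42 ± 0.57 (adjusted p = 0.101). Tppp3 (chr8:105467493-105471526, minus strand), a tubulin polymerisation protein found in ciliated cells and some glia, was at 23.5, 19.2 and 19.3 CPM against 37.7, 34.0 and 27.7 CPM. For Tppp3 the log2 fold change was 0.69 ± 0.13 (adjusted p = 0.0893) and 0.80 ± 0.12 without mouse 3 (adjusted p = 0.0243), so the estimate did not fall when that mouse was left out.

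Cilia genes are known targets of RFX transcription factors, which bind an inverted repeat called the X-box. The 250 bases before the RefSeq start (GRCm38.p6) are shown for Enkur and Tekt4, both called, and for Dynlrb2, a dynein light chain gene of the ependyma list described below. The capitals mark the half-site GTTGCC in Enkur and the palindrome in the other two, which is GTTGC and GCAAC with any 3 letters between them. The RefSeq start of Tekt4 used here lies inside the gene as GENCODE draws it.

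Enkur (chr2:21205366-21205615, minus strand): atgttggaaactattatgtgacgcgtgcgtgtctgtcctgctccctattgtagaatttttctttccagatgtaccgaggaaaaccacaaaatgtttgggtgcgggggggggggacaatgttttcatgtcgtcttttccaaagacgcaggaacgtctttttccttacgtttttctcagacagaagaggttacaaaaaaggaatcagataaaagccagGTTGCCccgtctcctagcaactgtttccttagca
Tekt4 (chr17:25471340-25471589, plus strand): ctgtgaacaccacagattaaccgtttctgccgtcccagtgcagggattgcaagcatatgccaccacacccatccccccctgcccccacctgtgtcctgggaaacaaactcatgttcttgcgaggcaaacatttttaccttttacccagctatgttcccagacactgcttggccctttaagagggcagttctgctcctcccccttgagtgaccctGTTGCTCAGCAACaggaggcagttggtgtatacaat
Dynlrb2 (chr8:116504765-116505014, plus strand): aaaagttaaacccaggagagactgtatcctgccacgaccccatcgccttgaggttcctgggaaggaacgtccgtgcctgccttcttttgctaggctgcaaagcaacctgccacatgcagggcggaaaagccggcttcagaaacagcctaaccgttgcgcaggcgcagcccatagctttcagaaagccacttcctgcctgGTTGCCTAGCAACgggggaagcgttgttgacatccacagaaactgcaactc

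The marked letters begin 34 bases before the start in Enkur, 36 in Tekt4 and 51 in Dynlrb2. Searched on both strands of the same window, GTTGCC was in 1243 of the 11505 tested genes with a promoter in the table (10.8%), in 1 of the 17 called genes with a promoter (Enkur) and in 5 of 14 ependyma list genes (35.7%). The palindrome, which was chosen after these sequences had been read and whose matches can contain the half-site, was in 33 of the 11505 (0.287%). It was in 1 of the 17 called genes and 1 of the 14 ependyma list genes. These are matches of letters and were not tied to binding by any measurement here. The RFX factor and Rbpj genes themselves gave 7 tested members with 0 higher and 1 lower at an unadjusted p below 0.05: Rfx1 (log2 fold change -0.19, adjusted p = 0.453).

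Most of the ependyma and motile cilia list had positive estimates. Of 18 members tested, 17 had a positive log2 fold change, 15 had an unadjusted p below 0.05 in the higher direction (5.50% of all genes) and Tppp3 passed the adjusted threshold. The median log2 fold change was 1.07, beside -0.00354 over all genes, and without mouse 3 it was 1.12, with 13 members at an unadjusted p below 0.05 (5.89% of all genes). The summed level was 102.4, 101.3 and 102.9 CPM in PBS-acetate mice and 181.7, 119.4 and 151.1 CPM in tau-acetate mice. Foxj1, the master transcription factor of motile cilia, was at 7.88, 6.55 and 7.35 CPM against 20.8, 9.92 and 13.9 CPM (log2 fold change 1.05 ± 0.25, adjusted p = 0.177, and 1.1 ± 0.28 without mouse 3, adjusted p = 0.163). Dynlrb2 was at 0.646, 0.361 and 0.511 CPM against 2.58, 1.09 and 1.67 CPM (1.84 ± 0.41, adjusted p = 0.120, and 1.89 ± 0.44 without mouse 3, adjusted p = 0.101). In all 3 series tau-acetate mouse 1 was highest and mouse 2 lowest among the tau-acetate mice. In bulk tissue, more cells of a type and more RNA per cell cannot be told apart. Whether the share of ventricular lining in the dissected slices moved these values was not tested.

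The choroid plexus list rested much more on mouse 3. All 21 members tested were positive with all mice, beside 7201 of all 14742 genes. An unadjusted p below 0.05 held for 16 members (5.50% of all genes), and the median log2 fold change was 1.62. Without mouse 3 the median was 0.606, 18 of 21 were positive and 8 had an unadjusted p below 0.05 (5.89% of all genes). No member passed the adjusted threshold in either fit. Folr1, a folate receptor of this epithelium, was at 0.517, 0.516 and 0.383 CPM against 1.83, 0.726 and 4.24 CPM (2.22 ± 0.51, adjusted p = 0.151), and without mouse 3 at 1.45 ± 0.43 (adjusted p = 0.187). Kcne2, a potassium channel subunit of the same epithelium, was at 0 CPM in tau-acetate mouse 1 and at 3.92 CPM in mouse 3, and was the single tested choroid marker at 0 in a mouse of this diet. With the choroid plexus score as a covariate, an alternative added after seeing the data, 3 genes were called, 1 of them among the 20. The score is the mean log2 level of the list's own genes and shares their difference between the groups, so a loss of calls is partly built in.

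Both genes of the extracellular matrix among the 20 were over 2-fold higher. Cnmd (chr14:79637690-79662170, minus strand) encodes chondromodulin, a matrix glycoprotein known from cartilage. It had 4, 7 and 4 reads in PBS-acetate and 24, 19 and 47 reads in tau-acetate mice, a ratio of 5.77 (95% exact interval 3.32 to 10.7). The log2 fold change was 2.54 ± 0.46 (adjusted p = 0.0593), and 1.95 ± 0.42 (adjusted p = 0.0938) without mouse 3, whose value was the highest of the 6. Col8a2 (chr4:126286793-126314330, plus strand), a short-chain collagen, was at 1.36, 0.825 and 1.34 CPM against 4.21, 2.06 and 4.95 CPM. Its call (1.69 ± 0.34, adjusted p = 0.0893) was lost without mouse 3 (1.45 ± 0.36, adjusted p = 0.128). Meningeal and fibroblast markers gave a median of 0.266, with 1 of 18 at an unadjusted p below 0.05, and 0.134 without mouse 3.

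Among genes linked to reactive astrocytes and glial filaments, Vim and Myoc rose with all mice, and Gfap and Nes passed only in the fit without mouse 3. Vim (chr2:13573927-13582826, plus strand), the intermediate filament vimentin of reactive astrocytes, ependyma and vessels, was at 39.5, 33.9 and 33.7 CPM in PBS-acetate mice and at 66.1, 47.1 and 52.4 CPM in tau-acetate mice. The log2 fold change was 0.63 ± 0.11 (adjusted p = 0.0593) and 0.67 ± 0.12 without mouse 3 (adjusted p = 0.0712). Myoc (chr1:162639155-162649693, plus strand), which encodes the secreted protein myocilin, was at 16.5, 17.7 and 18.1 CPM against 26.3, 25.3 and 23.7 CPM (0.53 ± 0.09, adjusted p = 0.0593), and at 0.57 ± 0.10 without mouse 3 (adjusted p = 0.0625). No tau-acetate value of Myoc came near the PBS-acetate range. Gfap, the defining filament of reactive astrocytes, was at 537, 497 and 477 CPM against 724, 613 and 556 CPM; it missed the threshold with all mice (0.33 ± 0.09, adjusted p = 0.209) and passed without mouse 3 (0.41 ± 0.08, adjusted p = 0.0777). Nes, the filament nestin of progenitors and reactive glia, behaved likewise, at 10.5, 11.8 and 9.52 CPM against 17.9, 15.5 and 11.5 CPM (0.65 ± 0.12 without mouse 3, adjusted p = 0.0544), with mouse 3 inside the PBS-acetate range.

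All 12 reactive astrocyte genes tested were positive, 6 at an unadjusted p below 0.05 (5.50% of all genes), with a median of 0.356. Without mouse 3 the median was 0.410 and 8 had an unadjusted p below 0.05 (5.89% of all genes). In that fit Gfap joined Vim among the called. The summed level of the list was 756.9, 705.3 and 678 CPM against 1087, 858.5 and 798.1 CPM. By contrast, 15 homeostatic astrocyte markers split into 7 positive and 8 negative, with a median of -0.00759. Within that list Aqp4, the water channel of astrocyte endfeet, was at 143, 133 and 135 CPM against 163, 160 and 169 CPM (0.26 ± 0.06, adjusted p = 0.165).

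Il6st (chr13:112464070-112510086, plus strand) encodes gp130, the receptor subunit shared by cytokines of the interleukin-6 family, which signals through JAK kinases and STAT3. It separated the groups narrowly but cleanly, at 71.4, 70.2 and 68.5 CPM in PBS-acetate mice and 86.5, 86.5 and 87.1 CPM in tau-acetate mice. The log2 fold change was 0.31 ± 0.06 (adjusted p = 0.0593) and barely moved without mouse 3 (0.30 ± 0.06, adjusted p = 0.0938). Of the 16 measured genes of the IL-6 family list, 13 were positive, 4 had an unadjusted p below 0.05 in the higher direction, and Il6st was the single member called in either fit. Traf1 (chr2:34941750-34961772, minus strand), an adaptor of tumour necrosis factor receptors, had 2, 4 and 3 reads against 20, 11 and 20 reads, a ratio of 5.45 (95% exact interval 2.66 to 12.6). It was called with all mice (2.41 ± 0.50, adjusted p = 0.0986) and not without mouse 3 (2.19 ± 0.55, adjusted p = 0.132).

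Genes of immune signalling mostly had positive estimates, and tau-acetate mouse 1 held much of the difference. In the type I interferon list 16 of 17 members were positive and the median was 0.513. An unadjusted p below 0.05 held for 7 members (5.50% of all genes). Without mouse 3 the median was 0.735 and 11 had an unadjusted p below 0.05 (5.89% of all genes). None was called in either fit. The summed level was 111.5, 112 and 123.8 CPM in PBS-acetate mice and 196, 126.4 and 124.3 CPM in tau-acetate mice, so mice 2 and 3 lay just above the PBS-acetate range. Ifit1, an interferon-induced RNA-binding protein, was at 1.74, 2.01 and 2.17 CPM against 5.65, 2.78 and 4.05 CPM (1.08 ± 0.27, adjusted p = 0.170, and 1.1 ± 0.30 without mouse 3, adjusted p = 0.145). Irgm2, an interferon-inducible GTPase, was called without mouse 3 (1.07 ± 0.22, adjusted p = 0.0783), and its values of 3.75, 3.92 and 3.45 CPM against 9.81, 5.75 and 2.76 CPM put mouse 3 below every PBS-acetate mouse. Igtp lies on the same strand and shares 4.39% of the exon bases of Irgm2.

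All 15 complement and MHC class I genes were positive, 7 at an unadjusted p below 0.05 (6 without mouse 3). Their medians were 0.272 and 0.367, with no call in either fit. For this and the microglia lists, 5.50% of all genes were higher at that level, and 5.89% without mouse 3. C3, the central complement component, was at 1.49, 0.619 and 0.894 CPM against 7.48, 2.48 and 4.88 CPM (2.35 ± 0.54, adjusted p = 0.177, and 2.36 ± 0.60 without mouse 3, adjusted p = 0.182). C1qb, a chain of the complement trigger C1q made by microglia, was at 37.8, 39.2 and 40.0 CPM against 57.6, 45.5 and 46.2 CPM (0.35 ± 0.09, adjusted p = 0.168, and 0.40 ± 0.09 without mouse 3, adjusted p = 0.101). The homeostatic microglia list had 6 of 14 members higher at an unadjusted p below 0.05 in both fits (medians 0.140 and 0.194). One of these was Cx3cr1, the fractalkine receptor, at 53.6, 59.3 and 56.2 CPM against 69.9, 63.6 and 65.3 CPM (0.23 ± 0.06, adjusted p = 0.190). Of 16 disease-associated microglia genes, 13 were positive and 5 had an unadjusted p below 0.05.

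Among lipid and myelin genes, Scd1 rose in both fits, and several myelin genes passed only when mouse 3 was left out. Scd1 (chr19:44394455-44407879, minus strand), the desaturase that makes monounsaturated fatty acids, was at 166, 161 and 153 CPM in PBS-acetate mice and at 220, 199 and 188 CPM in tau-acetate mice. Its log2 fold change was 0.34 ± 0.06 (adjusted p = 0.0593) and 0.39 ± 0.07 without mouse 3 (adjusted p = 0.0483). In the fatty acid synthesis list it was the single gene called in either fit, and 10 of 12 members were positive. Fa2h, which adds the hydroxyl group to myelin galactolipids, was at 31.5, 31.5 and 29.5 CPM against 57.7, 50.0 and 36.2 CPM. It did not pass with all mice (0.64 ± 0.15, adjusted p = 0.176) and had the smallest p of any gene without mouse 3 (0.81 ± 0.10, adjusted p = 0.00435).

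All 22 myelin and oligodendrocyte genes were positive in both fits. With all mice 12 had an unadjusted p below 0.05 (5.50% of all genes) and none was called, with a median of 0.450. Without mouse 3 the numbers were 21 (5.89% of all genes) and 3 (Fa2h, Gjb1 and Cryab), with a median of 0.621. The summed level was 7313, 6036 and 5325 CPM in PBS-acetate mice and 10330, 9140 and 6414 CPM in tau-acetate mice, so mouse 3 fell within the PBS-acetate range. Mbp, myelin basic protein, followed that order at 2588, 2183 and 1920 CPM against 3655, 3316 and 2312 CPM (0.47 ± 0.18, adjusted p = 0.420, and 0.64 ± 0.13 without mouse 3, adjusted p = 0.101). Gjb1, the oligodendrocyte gap junction protein connexin 32, was at 13.5, 11.8 and 10.9 CPM against 21.9, 17.8 and 13.1 CPM (0.72 ± 0.14 without mouse 3, adjusted p = 0.0783). Cryab, a small heat shock protein abundant in oligodendrocytes, was at 73.0, 59.6 and 53.8 CPM against 100, 99.9 and 63.5 CPM (0.69 ± 0.12 without mouse 3, adjusted p = 0.0814). Of 10 markers of the precursors of these cells, 9 were positive and 1 had an unadjusted p below 0.05, with a median of 0.0669, and none was called. When a myelin score was added as a covariate, an alternative added after seeing the data, 18 genes were called with all mice, 4 of them among the 20, and 0 without mouse 3 (1097 at an unadjusted p below 0.05). The same fit without mouse 3 and with the choroid plexus score also gave 0 (885 at an unadjusted p below 0.05). Each score is the mean log2 level of the genes of its own list, and all 22 myelin genes were higher in tau-acetate mice. The score thus shares the difference between the groups, so a loss of calls is partly built in and decides nothing about its cause. Whether the amount of white matter in the slices moved these values was not tested directly.

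Of the 43 genes called without mouse 3 and not with all mice, the 15 with the smallest p were examined mouse by mouse. In all 15, mouse 3 was the tau-acetate mouse nearest to the PBS-acetate mean, and in 8 it lay inside the PBS-acetate range. In 6 the 3 tau-acetate mice still did not overlap the 3 PBS-acetate mice, which also held for 16.2% of all genes tested. Since these genes were picked by a fit that left mouse 3 out, the position of mouse 3 is partly set by the choice. Beside Fa2h, Nes, Gfap, Gjb1 and Irgm2, the 15 held Car2, a carbonic anhydrase of oligodendrocytes and choroid plexus, at 188, 179 and 156 CPM against 239, 253 and 185 CPM (0.50 ± 0.08 without mouse 3, adjusted p = 0.0483). Gab1, a docking protein of growth factor receptors, was at 36.7, 35.6 and 30.7 CPM against 53.8, 50.1 and 38.5 CPM (0.60 ± 0.11, adjusted p = 0.0712). Gna12, a G protein alpha subunit, was at 63.0, 60.4 and 56.5 CPM against 78.6, 77.0 and 61.6 CPM (0.37 ± 0.08, adjusted p = 0.0783). Myo1d, a class I myosin found in myelin, was at 22.7, 21.4 and 17.4 CPM against 32.9, 29.2 and 23.3 CPM (0.60 ± 0.12, adjusted p = 0.0809). Cdc42ep1, Plekhb1, Efhd1, Nkain1 and Rassf2 were also higher, with log2 fold changes of 0.38 to 0.55. Zkscan16, a zinc finger gene, was the single lower gene of the 15, at 130, 136 and 118 CPM against 103, 94.5 and 117 CPM (-0.38 ± 0.07, adjusted p = 0.0755).

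**Figure D3:**
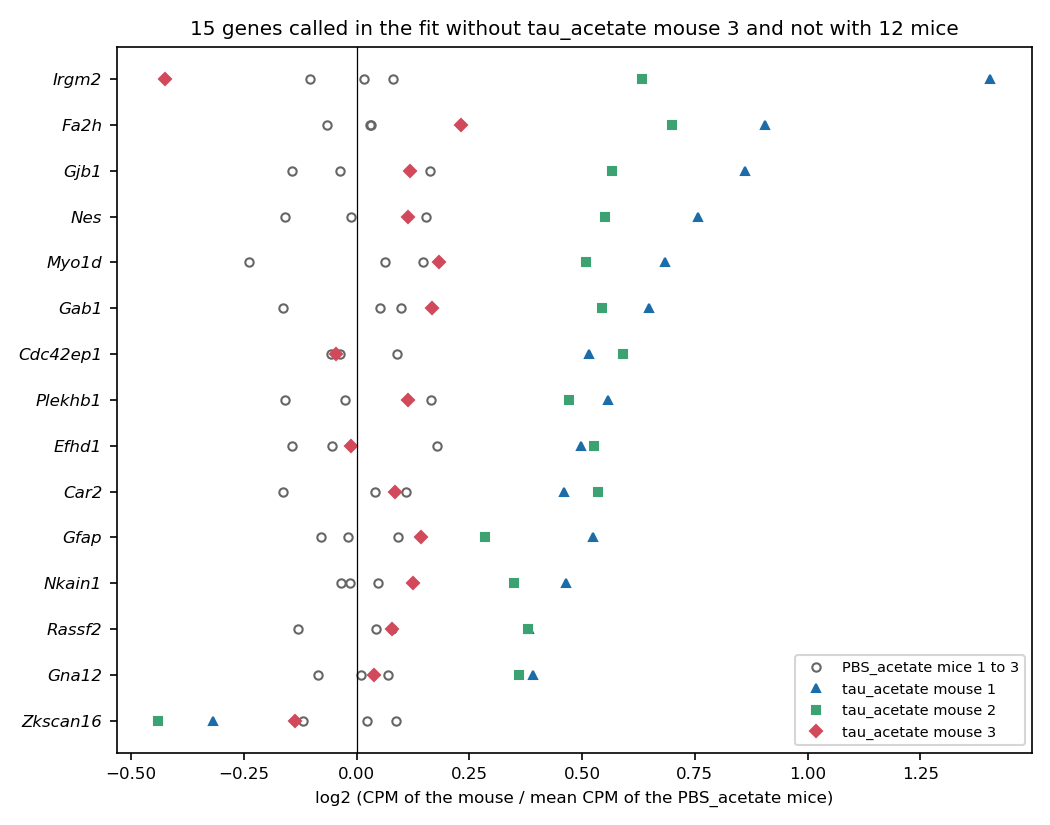
The 15 genes with the smallest p among those called without tau-acetate mouse 3 and not with all 12 mice, drawn as log2 ratio of each mouse's CPM to the PBS-acetate mean; open circles are PBS-acetate mice. Mouse 3 (diamonds) is the tau-acetate mouse nearest to 0 in all 15, and in Irgm2 it lies on the other side of 0 from mice 1 and 2.

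The remaining genes that rose have different roles. Lars2 (chr9:123366927-123462666, plus strand), the mitochondrial leucyl-tRNA synthetase, was at 84.4, 73.5 and 79.9 CPM against 115, 112 and 94.5 CPM. Its fold change was 0.44 ± 0.08 on the log2 scale (adjusted p = 0.0810), and without mouse 3, the lowest of the tau-acetate mice, it was 0.52 ± 0.08 (adjusted p = 0.0236). Sncg (chr14:34370274-34374789, minus strand), which encodes gamma-synuclein of neurons, was at 2.26, 1.96 and 2.36 CPM against 3.92, 3.99 and 6.10 CPM, with mouse 3 the highest (1.08 ± 0.22, adjusted p = 0.0893). Prkcq (chr2:11172108-11301222, plus strand), the protein kinase C theta, was at 10.1, 8.51 and 7.60 CPM against 12.2, 15.1 and 15.7 CPM (0.71 ± 0.14, adjusted p = 0.0893). Neither passed without mouse 3: Sncg then had an adjusted p of 0.143 and Prkcq of 0.130.

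The 7 genes that fell included regulators that act on or as RNA. Ftx (chrX:103560907-103623790, minus strand) is a long noncoding RNA of the X inactivation centre that lies near Xist. It was at 56.7, 54.4 and 55.3 CPM in PBS-acetate mice and at 42.2, 37.6 and 42.9 CPM in tau-acetate mice, with no overlap. The log2 fold change was -0.44 ± 0.07 (adjusted p = 0.0593) and -0.47 ± 0.08 without mouse 3 (adjusted p = 0.0483). Its neighbours gave smaller values: Xist was at -0.09 (adjusted p = 0.787), and of the 11 tested genes of the X inactivation centre and escape gene list Ftx alone was called in either fit. Rbm25 (chr12:83631236-83683123, plus strand), an RNA-binding regulator of splicing, was at 188, 182 and 184 CPM against 160, 151 and 152 CPM (-0.26 ± 0.05, adjusted p = 0.0593, and -0.25 ± 0.05 with adjusted p = 0.0938 without mouse 3). Pabpn1 (chr14:54892500-54898169, plus strand), the nuclear poly(A)-binding protein, was at 207, 204 and 201 CPM against 180, 148 and 161 CPM (-0.32 ± 0.06, adjusted p = 0.0593, and -0.31 ± 0.07 with adjusted p = 0.0938). Pabpn1 shares 21.4% of its exon bases with Gm20521 on the same strand, so its reads are uncertain to that extent.

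Most of the splicing and RNA-binding list had small negative estimates. Of 32 members, 31 were negative, 17 had an unadjusted p below 0.05 in the lower direction (4.83% of all genes) and Rbm25 was called. The median was -0.124, and without mouse 3 it was -0.125 with 15 members at an unadjusted p below 0.05 (4.92% of all genes). The 3 members named next were picked after their values were seen. Srsf5, an SR splicing factor, was at 197, 189 and 190 CPM against 169, 149 and 163 CPM (-0.26 ± 0.07, adjusted p = 0.168). Hnrnpu, a nuclear scaffold protein that binds RNA, was at 598, 609 and 597 CPM against 534, 522 and 546 CPM (-0.17 ± 0.04, adjusted p = 0.170). Luc7l2, a U1 snRNP-associated protein, was at 48.9, 54.9 and 53.0 CPM against 43.3, 32.5 and 36.7 CPM (-0.48 ± 0.11, adjusted p = 0.165). In all 3 the groups did not overlap, which also held for 16.2% of all genes tested, and tau-acetate mouse 2 was the lowest.

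The long noncoding RNA list had 13 of 18 members negative, 8 of them at an unadjusted p below 0.05 in both fits. Over all genes, 4.83% were lower at that level, and 4.92% without mouse 3. The medians of the list were -0.152 and -0.169. Besides Ftx no member was called. Malat1, an abundant nuclear RNA of splicing speckles, was at 1558, 1297 and 1345 CPM against 1202, 922 and 1039 CPM (-0.41 ± 0.10, adjusted p = 0.177, and -0.40 ± 0.11 without mouse 3, adjusted p = 0.205). Meg3, an imprinted neuronal RNA, was at 2732, 2509 and 2359 CPM against 1998, 1460 and 1926 CPM (-0.50 ± 0.15, adjusted p = 0.321, and -0.55 ± 0.18 without mouse 3, adjusted p = 0.296). Mouse 2 was again the lowest of the tau-acetate mice, and these 2 members were likewise picked after their values were seen.

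The other genes that fell were Cdc25b, Ccdc142, Dffb and Fam76b. Cdc25b (chr2:131186949-131198497, plus strand), a phosphatase that activates cyclin-dependent kinases, was at 25.8, 26.5 and 22.5 CPM against 17.6, 17.7 and 18.2 CPM (-0.48 ± 0.10, adjusted p = 0.0893). Ccdc142 (chr6:83101601-83108394, plus strand) was at 16.7, 15.6 and 14.9 CPM against 11.2, 8.71 and 10.9 CPM (-0.61 ± 0.12, adjusted p = 0.0893), but 72.1% of its exon bases are shared on the same strand with Gm42688. Dffb (chr4:153964449-153975126, minus strand), the nuclease that cuts DNA in apoptosis, was at 9.30, 9.75 and 8.43 CPM against 6.74, 4.90 and 5.59 CPM (-0.67 ± 0.14, adjusted p = 0.0999). Fam76b (chr9:13827716-13854987, plus strand) was at 27.3, 29.7 and 28.4 CPM against 22.8, 19.0 and 21.6 CPM (-0.43 ± 0.09, adjusted p = 0.0999). Cdc25b and Ccdc142 still passed without mouse 3, whereas Dffb (adjusted p = 0.129) and Fam76b (adjusted p = 0.101) did not.

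Neuronal cell type markers held no called gene. None of the 6 CA1, 5 CA2, 8 inhibitory neuron or 3 Cajal-Retzius markers tested had an unadjusted p below 0.05 with all mice, and 1 CA3 and 1 dentate marker did. Among 22 glutamate receptor genes 16 were negative and 4 had an unadjusted p below 0.05 in the lower direction (4.83% of all genes). Gria2, the AMPA receptor subunit that limits calcium entry, was the clearest of them, at 1309, 1303 and 1275 CPM against 1129, 1115 and 1131 CPM (-0.20 ± 0.04, adjusted p = 0.114, and 0.130 without mouse 3). Gria3, another AMPA receptor subunit, was at 302, 307 and 295 CPM against 265, 256 and 268 CPM (-0.20 ± 0.05, adjusted p = 0.168). Gabrg1, a GABA-A receptor subunit, was at 22.2, 20.2 and 19.9 CPM against 15.1, 15.5 and 17.0 CPM (-0.39 ± 0.09, adjusted p = 0.133), and passed without mouse 3 (-0.44 ± 0.10, adjusted p = 0.1 after rounding, just under the threshold). The groups of all 3 genes did not overlap, which also held for 16.2% of all genes tested. Of 19 immediate early genes, which neurons switch on with activity, 2 were higher and 1 lower at an unadjusted p below 0.05, and none was called.

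The lists closest to the treatment held no called gene in either fit. Of 17 acetate and acetyl-CoA genes 1 had an unadjusted p below 0.05 (Acly, which makes acetyl-CoA from citrate, at a log2 fold change of 0.12, adjusted p = 0.453). Of 27 genes of lysine acetylation 5 were higher and 3 lower at that level (5.50% and 4.83% of all genes), and none was called. One was Sirt2, a deacetylase abundant in myelin, at 111, 114 and 108 CPM against 132, 128 and 116 CPM (0.18 ± 0.06, adjusted p = 0.284). Among 25 genes for tau, its kinases and Alzheimer risk, 0 were higher and 1 lower at that level. Respiratory chain subunits gave 56 negative of 72 but 3 at an unadjusted p below 0.05, with a median of -0.0419. Autophagy and lysosome genes gave 24 positive of 27 and 6 at an unadjusted p below 0.05, with a median of 0.0560. No gene of the cholesterol, ribosome, proteasome, chaperone or synaptic vesicle lists was called in either fit.

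**Figure D4:**
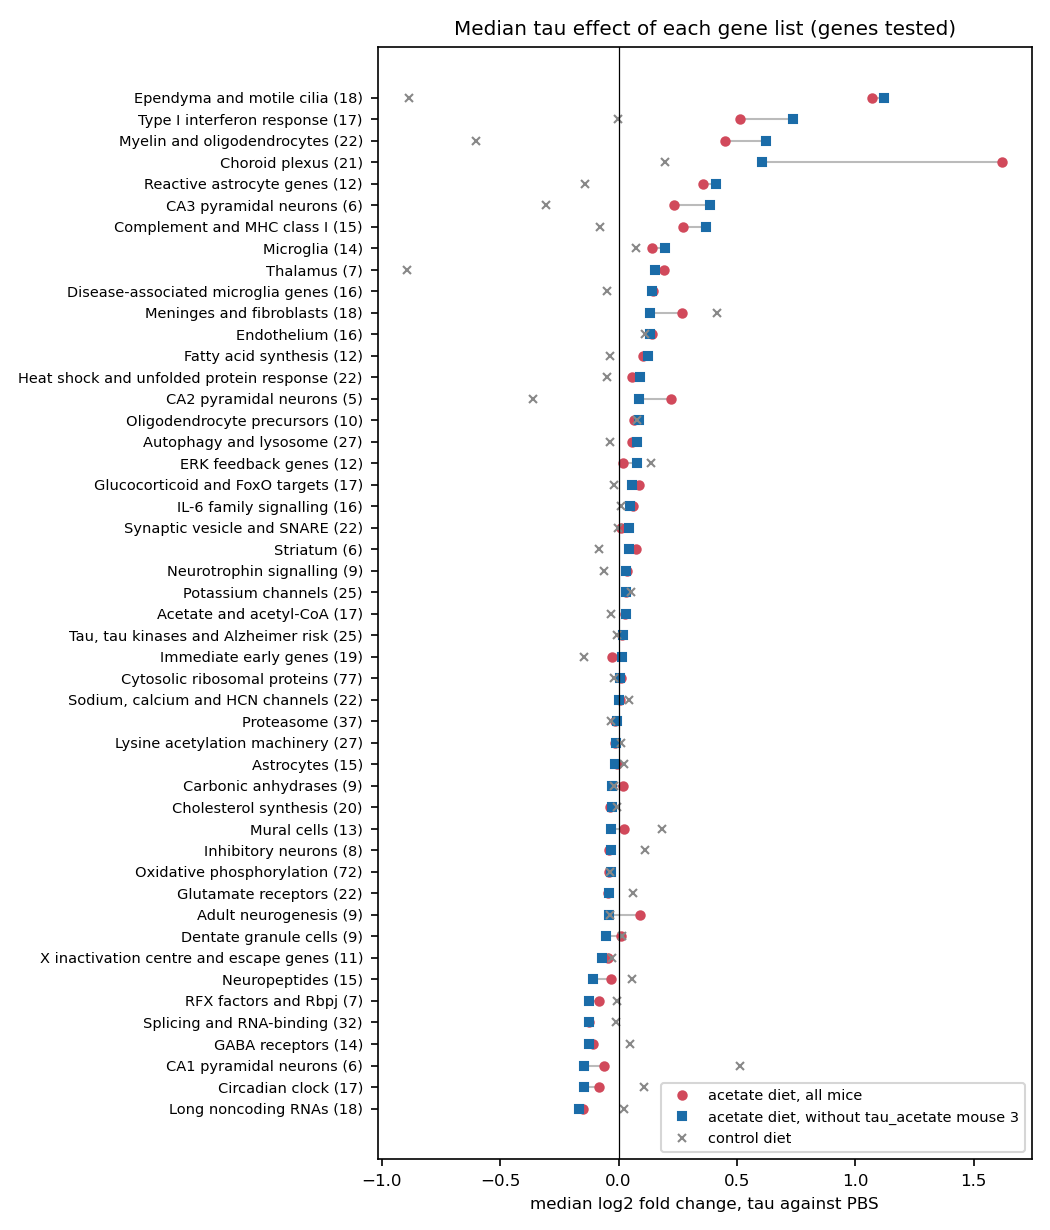
Median log2 fold change (tau against PBS) of each gene list with at least 5 genes tested, the number tested in brackets. Circles are the acetate diet with all mice, squares the acetate diet without tau-acetate mouse 3, and crosses the control diet. The choroid plexus list moves most, from 1.62 to 0.606; ependyma, interferon and myelin lists are the next highest, and myelin and ependyma lie below 0 on the control diet.

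The 20 called genes were then set beside the control diet, whose 6 mice are separate animals. A test of the difference between the tau effects on the 2 diets passed for 230 of the 14742 genes (1.56%), 164 with a more positive and 66 with a more negative effect on acetate. Without tau-acetate mouse 3 it passed for 442 of 14917 genes (2.96%), 332 more positive and 110 more negative. Other single mice moved the count as far: leaving out PBS-acetate mouse 1 or 2 left 127 and 8, tau-acetate mouse 1 left 22, PBS-control mouse 1 or 2 left 144 and 102, and tau-control mouse 1 or 2 left 113 and 47. With all mice it passed for 15 of the 20 called genes, all but Rbm25, Pabpn1, Cdc25b, Dffb and Fam76b, and without mouse 3 for 14 of those 15, Sncg being the exception (adjusted p = 0.122). Because these genes were chosen on the acetate-diet contrast, which is one side of that difference, this share is a description. All 13 higher genes had a negative estimate on the control diet and 3 of the 7 lower genes had a positive one. Scd1 was the clearest, with mean values of 207 CPM in PBS-control, 160 in PBS-acetate, 160 in tau-control and 202 in tau-acetate mice. Its log2 fold change was -0.37 ± 0.06 on the control diet (adjusted p = 0.0879) and the difference between diets was 0.71 (adjusted p = 0.0024). The other 19 genes did not pass on the control diet. For Il6st the means were 88.2, 70.1, 83.1 and 86.7 CPM in the same order, and for Myoc 17.5, 17.4, 14.6 and 25.1 CPM. On the log2 scale, the tau-acetate mean lay nearer the PBS-control mean than the PBS-acetate mean did in 16 of the 20 genes. The same held for 14 of the 15 further genes examined mouse by mouse, with mouse 3 in the means. Genes said to rise or fall did so relative to PBS-acetate mice, and these shares too are a description. Neither they nor the counts of opposite sign on the control diet were set beside a share over all genes tested. They therefore show no excess in the called genes.

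**Figure D5:**
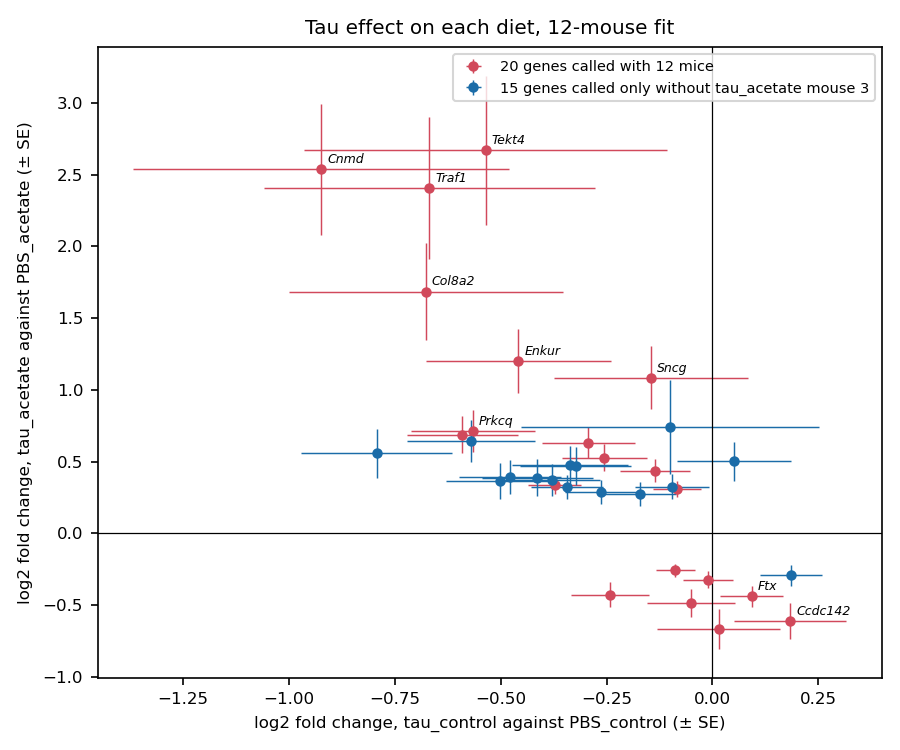
Log2 fold change (± SE) of tau against PBS on the control diet (x axis) and on the acetate diet (y axis), 12-mouse fit, for the 20 genes called with 12 mice and the 15 genes with the smallest p called only without tau-acetate mouse 3. The 13 higher genes called with 12 mice all lie left of 0 on the x axis.

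The lists were set side by side on the 2 diets without a test. Myelin genes had a median of 0.450 on acetate and -0.600 on the control diet, and ependyma genes 1.07 and -0.884. Splicing genes were at -0.124 and -0.0109, and interferon genes at 0.513 and -0.0043, so the control-diet medians of these 2 lists were close to that of all genes (-0.000856). Choroid plexus (1.62 and 0.194), meningeal (0.266 and 0.417) and microglia genes (0.140 and 0.0723) had positive medians on both. The difference between diets was tested gene by gene and not for the lists. With all mice it passed for members of the ependyma list that include Foxj1, Pifo, Dynlrb2, Tppp3 and Rarres2, and for Nkx6-2, Fa2h and Gjb1 of the myelin list. Rarres2 encodes the chemoattractant chemerin and had the values 4.20, 4.33 and 4.66 CPM in PBS-acetate, 8.77, 6.41 and 8.41 CPM in tau-acetate, and means of 8.26 and 4.57 CPM in PBS-control and tau-control mice.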

How the data were processed

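The authors sequenced polyA RNA of dorsal hippocampus from 12 mice, aligned the reads with STAR (2.5.2a per the labels) to GRCm38 and counted exonic reads per gene on the reverse strand with HTSeq 0.9.1. They deposited raw counts for 24985 genes, of which 5357 had none in any mouse. Groups came from the sample labels, and mice were taken as biological replicates as the series text says. Genes were kept by filterByExpr (minimum count 10, minimum total 15) and tested with edgeR 4.0.16 (R 4.3.3): TMM, 1 mean per group over 12 mice, or 11 without tau-acetate mouse 3, robust quasi-likelihood F test, Benjamini-Hochberg over all genes, threshold 0.1. Errors are SE derived from F, and the common biological coefficient of variation was 7.25%. Exact permutation of 3 against 3 mice cannot go below p = 0.1 and was not used. DESeq2 1.42.0 was an alternative. In simulated counts, 25 of 175 genes called between tau and PBS on acetate were false. Without tau-acetate mouse 3, 20 of 164 were false. Both shares lay above the 0.1 set by the threshold, so the calls on acetate can hold more false genes than it states. For the difference between diets, 14 of 142 simulated calls were false, and 10 of 127 without that mouse, both below 0.1. Gene coordinates are from GENCODE M21 (GRCm38).

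The members, lists and tests were chosen with earlier results of these data known. Named were all genes called with 12 mice, the 15 smallest p among further genes called without mouse 3, up to 4 members a list that were called or, failing that, up to 3 of smallest p, the 5 smallest interaction p, and Acss2, Mapt, Ttr, Xist and Y-linked genes. Foxj1, Dynlrb2, Pifo, Mbp, Nkx6-2, Kcne2, Srsf5, Hnrnpu, Luc7l2, Malat1, Meg3 and the habenula genes fall outside that rule and were chosen after their values were seen. The promoter sequences are from RefSeq (GRCm38.p6), and 17 of the 20 called genes matched.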

Additional observations from a re-analysis of the deposited data

Results flagged for a closer look

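The effect of tau differed between the diets by an interaction test (edgeR, adjusted p below 0.1 over all genes) in the 44 genes below, each given with the log2 fold change on acetate minus that on the control diet, 3 mice in each of the 4 groups. Most were named because of their acetate-diet values, and both diets enter the difference. Genes of cilia, ependyma and choroid plexus were Foxj1 (2.00), Pifo (3.03), Dynlrb2 (2.88), Enkur (1.66), Tekt4 (3.21), Tppp3 (1.28) and Folr1 (2.92). Genes of myelin and lipid handling were Fa2h (1.21), Gjb1 (1.35), Nkx6-2 (1.07), Scd1 (0.71), Plin4 (1.80), Car2 (0.75), Plekhb1 (0.87), Myo1d (0.81) and Sirt2 (0.32). Astroglial, filament and matrix genes were Vim (0.93), Cd44 (1.57), Aqp4 (0.35), Kcnj10 (0.42), Myoc (0.78), Cnmd (3.46) and Col8a2 (2.36). Immune and receptor signalling genes were C3 (3.60), Il6st (0.39), Traf1 (3.08), Rarres2 (1.70), Prkcq (1.28) and Gab1 (0.79). Of the others with a positive difference there were Cdc42ep1 (0.80), Dbndd2 (0.56), Efhd1 (0.87), Nkain1 (0.66), Rassf2 (0.55), Lars2 (0.57), Lamp1 (0.29) and Sncg (1.23). A negative difference was found for Ftx (-0.53), Ccdc142 (-0.80), Zkscan16 (-0.48), Gabrg1 (-0.61), Gria2 (-0.26), Gria3 (-0.27) and Npas2 (-0.85). The adjusted p-values ran from 0.0024 for Scd1 to 0.0909 for Sirt2. Without tau-acetate mouse 3 all 44 had the same sign and 43 passed, the exception being Sncg (1.00, adjusted p = 0.122). That fit shares its other mice with the first and calls more genes. Leaving out PBS-acetate mouse 2 instead left 8 genes passing in all, and leaving out tau-acetate mouse 1 left 22. Many of the 44 therefore did not pass in those fits.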

How the results depend on the processing

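Counts are given as higher and lower genes. With all mice (13 and 7), an adjusted p below 0.05 left 0 and 0 by edgeR (1523 genes at an unadjusted p below 0.05), no filter on low counts gave 24 and 13, DESeq2 77 and 44, the acetate-diet mice alone 8 and 8 by edgeR and 82 and 53 by DESeq2. Scores added as covariates after seeing the data, which share the difference between the groups, gave 14 and 4 for myelin and 3 and 0 for choroid plexus. Without tau-acetate mouse 3 (41 and 15), the same settings gave 5 and 1, 100 and 45, 143 and 57, 101 and 35, and 152 and 71, and both covariates 0 and 0 (1097 and 885 genes at an unadjusted p below 0.05; DESeq2 was not run with them). For the difference between diets (164 more positive, 66 more negative), an adjusted p below 0.05 left 37 and 6, and DESeq2 gave 314 and 124. DESeq2 size factors moved no count by over 1.5 times. The cause of these shifts was not tested.

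Leaving out 1 mouse at a time gave 0 to 89 higher and 0 to 15 lower genes with all mice, 1 to 129 and 0 to 35 without tau-acetate mouse 3, and 7 to 332 and 1 to 110 for the difference between diets. None of the 20 and 15 named genes reversed under any alternative run; the call was kept in 228 of 419 and in 194 of 300 values. Of 100 list medians recomputed with DESeq2 size factors or without tau-acetate mouse 3, 97 moved by less than 1 SD between mice. TMM factors ran from 0.99 to 1.01, so a change of size factors could hardly move a median. The SD included mouse 3, so a list widened by that mouse could count as unmoved. The count of 97 therefore does not show that the medians are stable.

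On the acetate diet, deviations of same-numbered mice correlated at -0.0862, -0.00134 and -0.0847, and those of other pairs at -0.0754 to 0.142. The same-numbered mice were thus not more alike. With 3 mice a group and the control diet not compared, these values do not settle whether the numbers pair the mice. A replicate block gave 20 and 5 genes with all mice, 163 and 104 without tau-acetate mouse 3, and 256 and 93 for the difference between diets.

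With 3 mice a group, small changes can be missed, and all 20 calls with all mice had an adjusted p between 0.0593 and 0.1. Genes such as Tekt4, Traf1 and Cnmd rest on few reads in the PBS-acetate mice.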
